A study of Rattus norvegicus with 4 samples.

Results

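Axon guidance ligands and receptors were examined in m6A-seq of neonatal rat cardiac fibroblasts (CFs). The members were all rat genes whose NCBI symbol belongs to the semaphorins (Sema3 to Sema7), plexins, neuropilins, netrins, the netrin receptors Unc5, Dcc and Neo1, the Slits and Robos, or the ephrins and Eph receptors. There were 70 such genes in the RefSeq table, 35 ligands and 35 receptors, and 45 of them had a listed m6A peak in at least 1 group, out of 8729 genes with a peak in all. The CFs were primary cells from healthy Sprague-Dawley rats taken within 3 days of birth. The Vector group, with the genotype label WT, was transfected with the Vector plasmid, and the FTO group, labelled FTO overexpression, with a plasmid carrying rat FTO cDNA, for 2 days. Each group had 1 m6A-IP and 1 input library, and the comparison asked which m6A peaks changed when the demethylase FTO was raised. Whether cells of several animals were pooled is not given in the sources used here.

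These families were named for steering growing axons, and the same cues act on heart and vessel cells. Semaphorins signal through plexins, and the secreted class 3 semaphorins use neuropilins as co-receptors. Netrins bind Dcc, neogenin (Neo1) and the Unc5 receptors, Slits bind the Robos, and ephrins bind the Eph receptor tyrosine kinases and can also signal back into the cell that carries them. In the heart, semaphorin 3C guides outflow tract development, and ephrin-B2 and EphB4 mark arterial and venous endothelium. m6A is a methyl mark on adenosines of mRNA, and FTO removes it.

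A peak is a stretch of a transcript where fragments pulled down with the m6A antibody exceed the input. The lists give its length in bp, its transcript and its gene, while its height, its enrichment and the sequencing depth were not used here. A lower level of a transcript and a lower methylation of it therefore cannot be told apart in these numbers. With 1 list per group no difference has a replicate check and no p-value was computed, and the 95% Wilson intervals cover counting error only. The Vector list held 21249 peaks and the FTO list 17796, a ratio of 0.837. The transfected gene Fto had 3 Vector peaks and 9 FTO peaks. Of 11 fibroblast markers 7 had a peak, with 15 Vector and 11 FTO peaks, and Vim, Col1a1, Col1a2 and Col3a1 had none. Peaks were also listed for 5 of 7 cardiomyocyte markers (22 Vector and 24 FTO peaks), 1 of 5 endothelial markers (0 and 2), 3 of 5 smooth muscle and pericyte markers (22 and 22), 3 of 4 macrophage markers (12 and 9) and 1 of 6 Schwann and neural markers (3 and 1), and the part of such cells in the results was not tested. Of these, Tek was the endothelial and Tubb3 the neural marker with a peak, and the cardiomyocyte markers Ttn and Nppa had none.

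Peaks were listed for 64.3% of the axon guidance genes (45 of 70, 95% Wilson interval 52.6% to 74.5%). The same share over all 23154 protein-coding RefSeq genes was 35.5%. Expression and transcript length were not taken into account in either share, so differences in them and in methylation cannot be told apart here. The genes without a peak were Sema3g, Sema4f, Sema5a, Sema5b and Sema7a among the semaphorins, Plxnb3, the netrins Ntn3 and Ntn5, the netrin receptors Dcc, Unc5a and Unc5d, Slit1, Robo3 and Robo4, the ephrins Efna3, Efna4, Efna5 and Efnb3, and the Eph receptors Epha1, Epha3, Epha5, Epha6, Epha8, Epha10 and Ephb1. For these genes absence of the mark and low expression cannot be told apart. Among the genes with peaks, receptors carried 4.0 Vector peaks per gene over 21 genes and ligands 2.3 over 20 genes, numbers that were not corrected for transcript length. The peaks of the ligands were the longer ones, with a median of 395 bp against 257.5 bp in the Vector group and 472 bp against 222 bp in the FTO group.

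In total the axon guidance genes had 130 Vector peaks and 122 FTO peaks, a ratio of 0.938. The direction depends on the size of the lists, since FTO numbers scaled up by 1.19, the ratio between the list sizes, exceeded the Vector number by 15.7 peaks. For the ligands this scaling turned 2 fewer FTO peaks into 6.54 more, and for the receptors 6 fewer into 9.13 more. The ligand Ntn1, picked beforehand for peaks in the FTO list alone, gave 6 of the 122 FTO peaks. Without Ntn1 the listed difference FTO minus Vector was -14 for all members and -8 for the ligands. No scaled value was computed without it. FTO peaks were fewer for 17 of the 45 genes (37.8%), against 41.4% of all genes. They were as many for 14 genes (31.1%, against 37.4% of all) and more for 14 genes (31.1%, interval 19.5% to 45.7%, against 21.2% of all). Peaks in the Vector list alone were found for 7 genes (15.6%, against 16.4%) and in the FTO list alone for 4 genes (8.89%, against 9.57%). A difference of at least 2 peaks was found downward for 8 genes (17.8%, against 14.8%) and upward for 4 genes (8.89%, against 4.72%). The shares of all genes lay inside the counting intervals of the members in each of these cases. Ntn1 counts among the 4 genes in the FTO list alone and among the 4 with at least 2 more peaks.

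**Figure D1:**
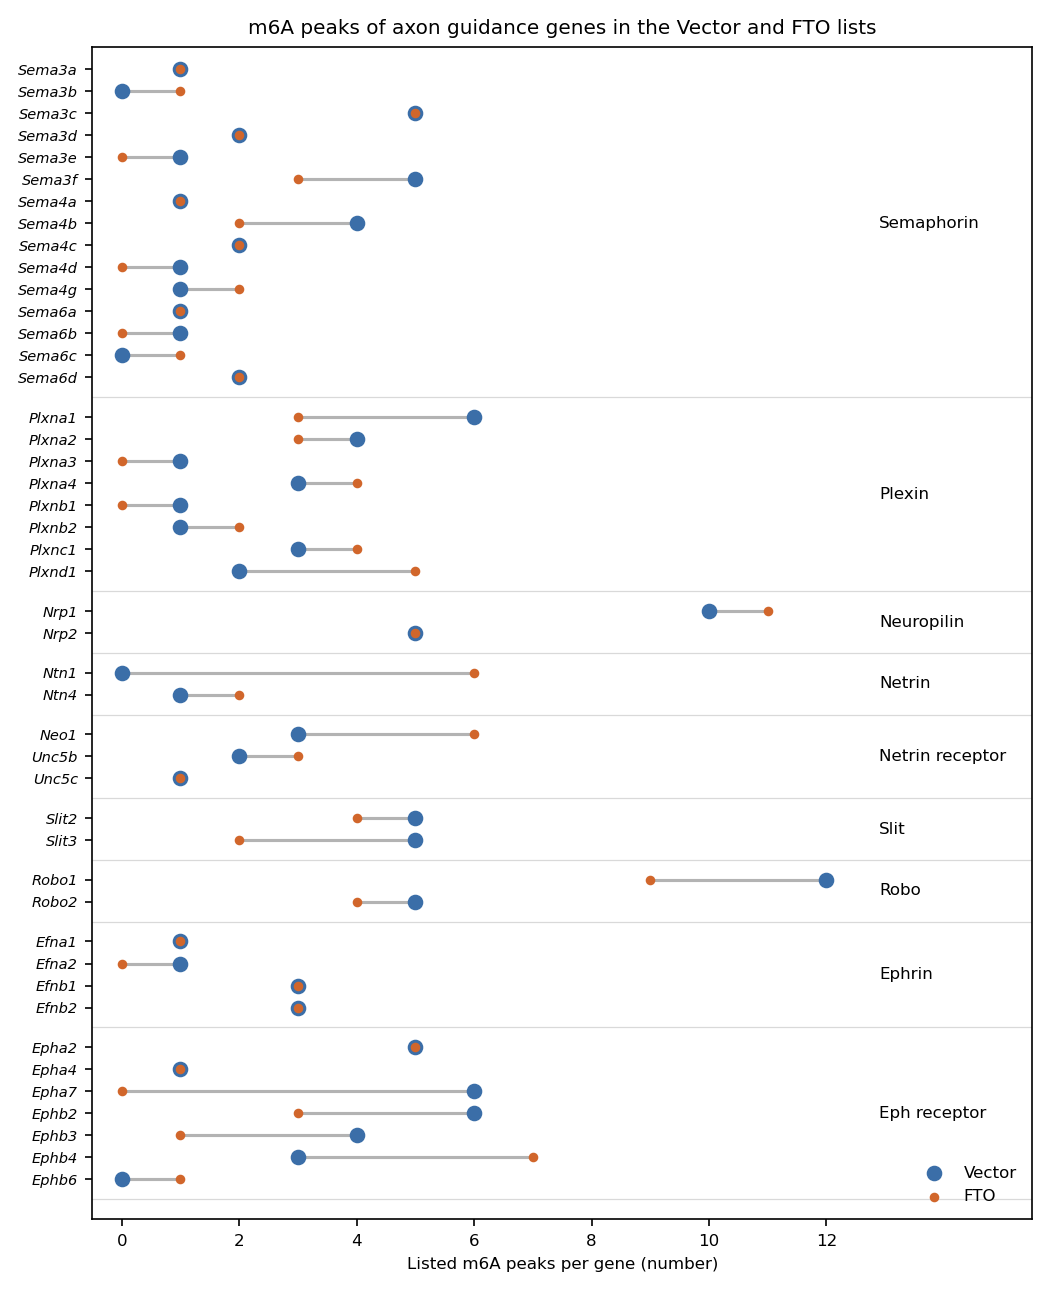
Number of listed m6A peaks (x axis) of the 45 axon guidance genes with a peak, by family, with large blue points for the Vector list and small orange points for the FTO list, joined by a grey line. Ntn1 goes from 0 to 6 peaks and Epha7 from 6 to 0, and the points of 14 genes coincide.

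The plot of peaks per gene is ordered by the 4 ligand-receptor systems. Over all genes, FTO peaks were fewer for 41.4%, as many for 37.4% and more for 21.2%. The netrin system had 7 Vector peaks and 18 FTO peaks, 6 of them on Ntn1, whose FTO peaks were known beforehand. FTO peaks were more for 4 of its 5 listed genes (3 of 4 without Ntn1), as many for 1 and fewer for 0. The Slit and Robo system had 27 Vector peaks and 19 FTO peaks, with fewer for all 4 of its listed genes. The ephrin and Eph system had 33 and 25 peaks, with fewer for 4 genes, as many for 5 and more for 2. The semaphorin system with its plexins and neuropilins had 63 and 60 peaks, with fewer for 9 genes, as many for 8 and more for 8. With FTO numbers scaled up to the size of the Vector list the difference FTO minus Vector turned to 8.64 in the semaphorin system, while it was 14.5 in the netrin system, -4.31 in the Slit and Robo system and -3.15 in the ephrin and Eph system. The 14.5 includes the 6 Ntn1 peaks known beforehand, and no scaled value was computed without them. These are counts over a few genes each, and the differences between the systems were not tested.

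Peaks were also paired between the lists, 1 to 1, when gene and length were equal. The lists give no positions, so whether paired peaks lie at the same place is not known. For the axon guidance genes 70 peaks were paired. This left 60 of the 130 Vector peaks without a partner, which is 46.2% (interval 37.8% to 54.7%) against 42.7% of all Vector peaks. Among the FTO peaks 52 of 122 had none, which is 42.6% (34.2% to 51.5%) against 31.6% of all FTO peaks. Of these 52, 6 were peaks of Ntn1, which had no Vector peak to pair with and was picked for that. When lengths within 10% were accepted the share of unpaired Vector peaks was 37.7%, against 36.4% of all Vector peaks. When every other peak of that gene was accepted as a partner it was 26.2%, against 27.8%. By family the unpaired share was 0 in the neuropilins, with 15 Vector peaks (interval up to 20.4%), and in the netrins, with 1 Vector peak. It was highest in the Eph receptors at 64.0% (44.5% to 79.8%) and the semaphorins at 63.0% (44.2% to 78.5%). Epha7 alone gave 6 of the 16 unpaired Eph receptor peaks, and Nrp1 gave 10 of the 15 neuropilin peaks. The intervals take peaks of 1 gene as independent, and differences between the families were not tested.

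**Figure D2:**
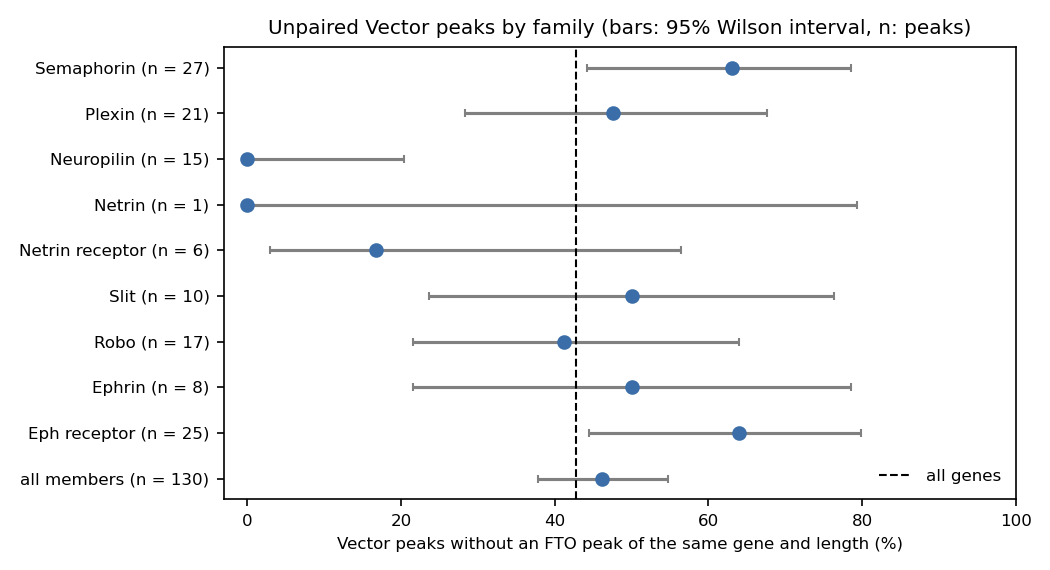
Percentage of Vector peaks that found no partner of equal length in their gene (x axis) for each family, with n giving the number of Vector peaks, horizontal bars the 95% Wilson intervals and the dashed line the value of all genes, 42.7%. The interval of the neuropilins ends at 20.4%, below the line, and those of the semaphorins and Eph receptors begin at 44.2% and 44.5%, above it. The intervals take peaks of 1 gene as independent, and Epha7 alone gave 6 of the 16 unpaired Eph receptor peaks. Differences between families were not tested.

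Netrins and their receptors had more FTO peaks for 4 of 5 listed genes, or 3 of 4 without Ntn1, against 21.2% of all genes. Ntn1 (gene ID 114523), the founding secreted netrin, was singled out in advance because it had peaks in the FTO list alone, so its gain is a description. It had no Vector peak and 6 FTO peaks of 455, 75, 54, 150, 189 and 932 bp, in the order of their peak numbers. They summed to 1855 bp. Ntn4, a laminin-related netrin of basement membranes, had 1 Vector peak of 530 bp and FTO peaks of 530 and 214 bp. The common 530 bp peak was kept, and the 214 bp peak was listed in the FTO group alone.

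Neo1 (gene ID 81735), a netrin receptor that also binds repulsive guidance molecules, had Vector peaks of 852, 264 and 159 bp. In the FTO list it had 6 peaks of 852, 137, 264, 159, 93 and 148 bp. Every Vector peak returned with the same length, and the 3 added peaks were all under 200 bp, so with peaks of at least 200 bp Neo1 had as many in both groups. Unc5b, which is prominent in vascular endothelium, kept its peaks of 390 and 180 bp and had a further FTO peak of 225 bp between them. Unc5c had 1 peak in each list, of 769 bp and 763 bp. Without Ntn1 the netrin system had 7 Vector peaks and 12 FTO peaks.

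The peak names carry running numbers, which mostly rose from gene to gene along the chromosomes. Of the steps from 1 listed gene to the next on a chromosome, 95% went upward in RefSeq order in each list. The order of peaks within a gene was not checked, since the lists give no positions. The listed peaks made up 35.7% (Vector) and 34.2% (FTO) of the numbers up to the highest. In the FTO list 16 numbers lay between the peaks of Stx8 and Pik3r5, the flanking genes of Ntn1, and 6 of them were the listed Ntn1 peaks. In the Vector list 12 numbers lay between the same genes, and none of them was listed. Numbers had thus been given in this interval in both groups, but which genes the unlisted ones lie in is not known.

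Slits and Robos had fewer FTO peaks for all 4 listed genes, against 41.4% of all genes. Slit3 (gene ID 83467), a secreted ligand of the Robos, had Vector peaks of 72, 144, 144, 72 and 209 bp and FTO peaks of 72 and 72 bp. Both peaks of 144 bp and the one of 209 bp were missing from the FTO list. From the first to the last listed Slit3 peak there were 9 numbers (Vector), 4 of them unlisted, and 13 (FTO), 11 of them unlisted. Why those numbers are not listed is not known. Slit2 had Vector peaks of 1013, 289, 72, 72 and 698 bp, and FTO peaks of 1525, 72, 72 and 698 bp. In place of the first pair of Slit2 peaks, which summed to 1302 bp, stood 1 longer FTO peak. Peaks of 72 bp, which is 24 codons, were listed for both genes in both groups, 4 in each list. The Slits are built of leucine-rich repeats of about this size, and which part of the transcript the peaks cover was not determined.

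Robo1 (gene ID 58946), the receptor with the most Vector peaks, had peaks of 327, 158, 139, 155, 336, 108, 145, 249, 407, 153, 309 and 197 bp in the Vector list. Its 9 FTO peaks were 327, 139, 336, 108, 249, 407, 153, 309 and 197 bp long. Every FTO peak thus had a Vector partner of equal length and in the same order, and the peaks of 158, 155 and 145 bp were missing. With peaks of at least 200 bp Robo1 had as many in both groups. From the first to the last Robo1 peak there were 22 numbers (Vector) and 21 (FTO). Robo2 had Vector peaks of 174, 139, 329, 522 and 748 bp and FTO peaks of 273, 139, 351 and 526 bp, of which 139 bp was common and was also a length found in Robo1. With peaks of at least 200 bp Robo2, too, had as many in both groups.

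**Figure D3:**
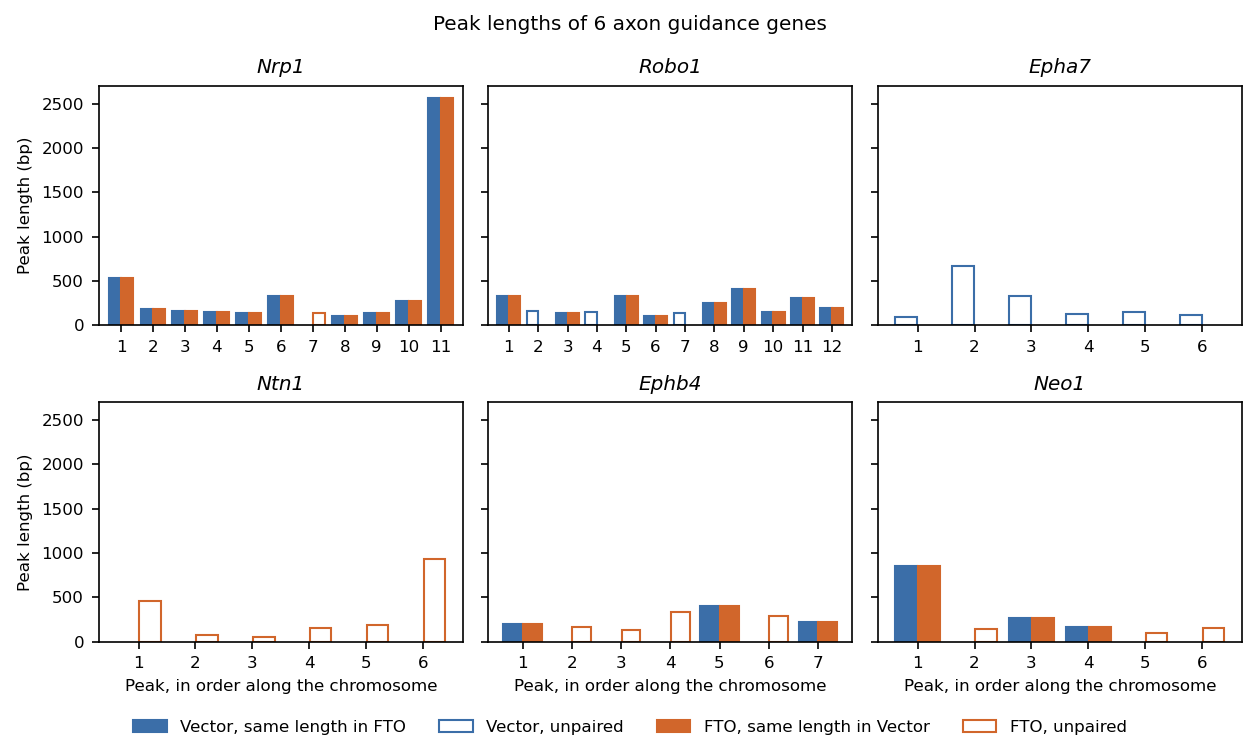
Length in bp (y axis) of each listed peak of 6 axon guidance genes, in the order of the peak numbers (x axis), with blue bars for Vector and orange bars for FTO. Filled bars are peaks of equal length in both lists and open bars are unpaired. Nrp1 and Robo1 keep nearly the same series, Epha7 has open Vector bars alone and Ntn1 open FTO bars alone.

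Of the 7 listed Eph receptors 3 had fewer FTO peaks, 2 had as many and 2, Ephb4 and Ephb6, had more. The shares over all genes were 41.4%, 37.4% and 21.2%. Epha7 (gene ID 171287), a receptor for ephrin-A ligands, had Vector peaks of 97, 670, 336, 125, 156 and 115 bp and no FTO peak. Between its flanking genes Manea and Map3k7, 19 numbers lay in the Vector list, 6 of them listed, and 21 in the FTO list, of which none was listed. Ephb3 had Vector peaks of 621, 673, 65 and 506 bp and 1 FTO peak of 621 bp. Ephb2 had Vector peaks of 1752, 109, 163, 125, 336 and 685 bp and FTO peaks of 1828, 336 and 685 bp. The peaks of 336 and 685 bp were common. The other 4 Vector peaks, 3 of them under 200 bp, had no FTO peak of equal length and stood against the 1 FTO peak of 1828 bp. With peaks of at least 200 bp Ephb2 had as many in both groups.

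Ephb4 (gene ID 686310), the receptor of ephrin-B2, had 3 Vector peaks of 194, 397 and 219 bp and 7 FTO peaks of 194, 166, 125, 333, 397, 288 and 219 bp. The Vector peaks were all kept, and 4 peaks were added between them. Epha2 had 5 peaks in each list but a different series, 676, 333, 194, 156 and 952 bp in the Vector list and 191, 68, 676, 154 and 194 bp in the FTO list. Behind the equal number stood 3 unpaired peaks in each group. Epha4 kept its peak of 664 bp, and Ephb6, which lacks kinase activity, had a peak of 318 bp in the FTO list alone.

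Several lengths recurred between Eph receptors. Of 28 different lengths, 5 were found in at least 2 Eph genes, which is 17.9%. The share was 14.3% in the Slits (1 of 7 lengths), 5.26% in the semaphorins and in the Robos, 3.33% in the plexins and 0 in the other families. The families differ in their numbers of genes and lengths. No such share was computed for other sets of genes, so how often lengths recur between unrelated genes is not known. The length 125 bp was listed for Epha7, Ephb2 and Ephb4, 336 bp for Epha7 and Ephb2, 333 bp and 194 bp for Epha2 and Ephb4, and 156 bp for Epha2 and Epha7. The semaphorins shared 89 bp and 158 bp between Sema3c and Sema3f. Lengths of exons were not compared with these values. Among the members 33.8% of the Vector peaks and 38.5% of the FTO peaks had a length that is a multiple of 3, against 38.1% of all Vector peaks and 38% of all FTO peaks.

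The ephrins changed little in number. Efnb1 and Efnb2, transmembrane ligands, had 3 peaks in each list. Efnb1 had lengths of 879, 278 and 1834 bp in the Vector list and 879, 278 and 1886 bp in the FTO list. Efnb2 had 227, 284 and 3518 bp against 227, 284 and 3526 bp, the last being the longest peaks of all members. Efna1 had 1 peak of 617 bp against 833 bp, and Efna2 had a peak of 431 bp in the Vector list alone.

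The neuropilins kept all of their Vector peaks. Nrp1 (gene ID 246331), co-receptor of class 3 semaphorins and of vascular endothelial growth factor, had Vector peaks of 535, 182, 167, 156, 145, 332, 105, 138, 272 and 2564 bp. Its FTO list repeated all 10 in the same order and added a further peak of 145 bp, which a minimum of 200 bp leaves out. Nrp2 had 667, 178, 263, 97 and 3299 bp in both lists. Every Vector peak of both neuropilins, 15 in all, thus had an FTO peak of the same length.

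Among the plexins, the signalling receptors of semaphorins, 4 genes had fewer FTO peaks and 4 had more, against 41.4% and 21.2% of all genes. Plxna1 had Vector peaks of 3205, 191, 257, 143, 194 and 1258 bp and FTO peaks of 3205, 213 and 1258 bp, both long peaks being kept. Plxnd1, a receptor of semaphorin 3E in vessels, had Vector peaks of 424 and 258 bp and FTO peaks of 424, 164, 178, 132 and 1134 bp. With peaks of at least 200 bp both Plxna1 and Plxnd1 had as many in the groups. Plxna2 had 4 and 3 peaks, and its Vector peak of 3172 bp had no counterpart, the FTO list giving 118 bp after the common peaks of 562 and 1262 bp. Plxna4 and Plxnc1 had 3 and 4 peaks each, differences that a minimum of 200 bp also took to 0, and Plxnb2 had 1 and 2. Plxna3, with 626 bp, and Plxnb1, with 727 bp, had 1 peak in the Vector list alone.

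The semaphorins, the largest ligand family, had 27 Vector peaks and 23 FTO peaks on 15 genes. FTO peaks were fewer for 5 genes, as many for 7 and more for 3, against 41.4%, 37.4% and 21.2% of all genes. Sema3c had Vector peaks of 1294, 1269, 131, 68 and 158 bp and FTO peaks of 2914, 131, 68, 158 and 89 bp. The first pair of Vector peaks summed to 2563 bp, less than the 1 FTO peak in their place. Sema3f had 1278, 158, 89, 223 and 161 bp against 1708, 158 and 223 bp, and as many of at least 200 bp in both groups. Sema4b had 152, 182, 383 and 407 bp against 152 and 1036 bp, and its unpaired Vector peaks summed to 972 bp.

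Single semaphorin peaks were listed in 1 group alone for 5 genes. They were 831 bp for Sema3e, 906 bp for Sema4d and 1543 bp for Sema6b in the Vector list, and 543 bp for Sema3b and 1407 bp for Sema6c in the FTO list. Sema3a and Sema6a kept their peaks of 654 bp and 1202 bp. Sema4g kept 489 bp and had a further FTO peak of 2277 bp. Sema3d, Sema4a, Sema4c and Sema6d had as many peaks in both lists with at least 1 changed length, for example 989 bp and 1237 bp for Sema4a.

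Peak numbers were taken as the order along a gene, which was not checked. Peaks left unpaired between the same common peaks of a gene were then set side by side. Of the axon guidance genes 18 had such a stretch with unpaired peaks in both lists, 19 stretches in all. The summed length was greater in the FTO list in 12 of 19 stretches (63.2%, interval 41.0% to 80.9%) against 51.8% of all genes' 2594 stretches. For the ligands it was greater in 10 of 11 stretches (90.9%, interval 62.3% to 98.4%), with 18314 bp in the Vector list and 20426 bp in the FTO list. For the receptors it was greater in 2 of 8 stretches (interval 7.15% to 59.1%), with 9422 bp and 5834 bp. The exception among the ligands was Sema3d with 1349 and 1328 bp, and those among the receptors were Plxnd1 and the first stretch of Robo2. This division by role was chosen after the values were seen and was not tested.

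In 9 of the 19 stretches exactly 1 Vector and 1 FTO peak faced each other. The FTO peak was longer in 6 of them and shorter in 3, a share of 66.7% (35.4% to 87.9%) against 57.5% of the 1613 such stretches of all genes. In 4 of the 9 the lengths were within 10% of each other. In 6 stretches several Vector peaks faced 1 FTO peak. It was longer than their sum in the ligands Sema3c, Sema4b and Slit2, and shorter in the receptors Ephb2, with 2149 and 1828 bp, Plxna1, with 785 and 213 bp, and Plxna2, with 3355 and 118 bp.

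**Figure D4:**
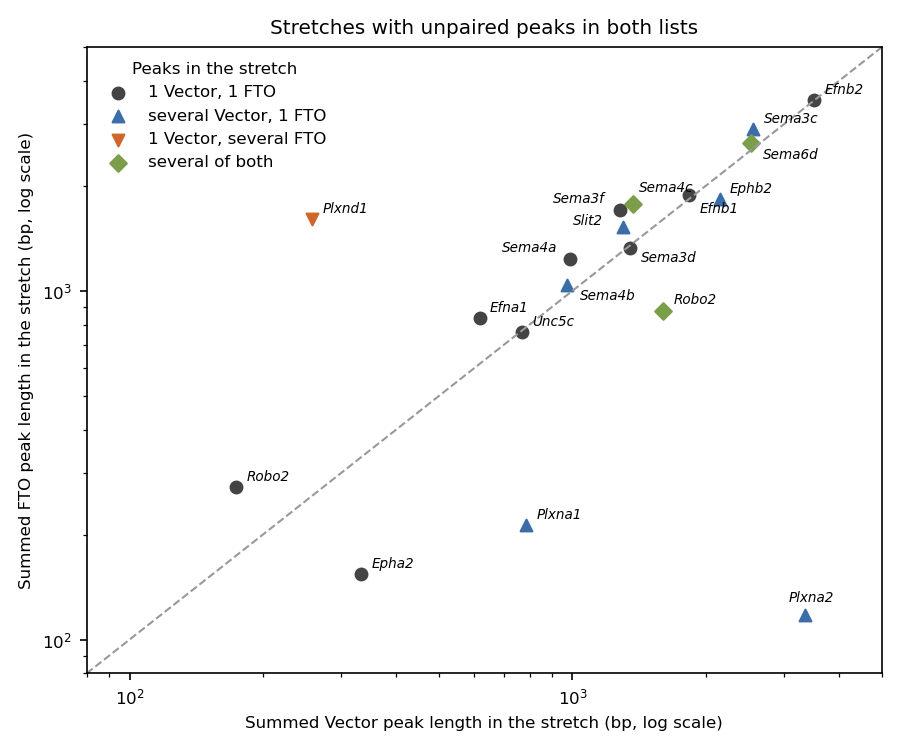
Summed length in bp of the unpaired FTO peaks (y axis, log scale) against that of the unpaired Vector peaks (x axis, log scale) in the 19 stretches between common peaks where both lists had some, with the symbol giving the number of peaks on each side. The dashed line marks equal length. Points of 10 of 11 ligand stretches lie above it, and Plxna2, Plxna1, Epha2, Ephb2 and the second Robo2 stretch lie below, with Unc5c and Sema3d just under it.

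All peaks of the axon guidance genes together covered 71313 bp (Vector) and 69515 bp (FTO), a ratio of 0.975. The covered length of all genes had a ratio of 0.932. The ligands went from 29331 bp to 33370 bp with 46 and 44 peaks, and the receptors from 41982 bp to 36145 bp with 84 and 78 peaks. Ntn1, picked for its FTO peaks, gave 1855 bp of the ligand length in the FTO list. Peaks of at least 1000 bp made up 23.9% of the ligand peaks and 10.7% of the receptor peaks in the Vector list, against 14.2% of all Vector peaks. In the FTO list the shares were 29.5% and 11.5%, against 16.7% of all FTO peaks.

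In many mRNAs m6A gathers near the stop codon and in the last exon. The strand from RefSeq was used to order the peaks from the 5′ to the 3′ end, and it was at hand for 17 of the 21 members with at least 3 Vector peaks and 15 of the 20 with at least 3 FTO peaks. In the Vector list the longest peak was the last one for 11 of these 17 members (64.7%, interval 41.3% to 82.7%), against 50.5% of all such genes. In the FTO list it was the last for 8 of the 15 (53.3%, 30.1% to 75.2%), against 51.4%. These places rest on the peak numbers, whose order within a gene was not checked. Efnb1, Efnb2, Nrp1, Nrp2, Neo1, Ephb2 and Sema3c had the longest peak last in both lists. In Epha2 and Plxna2 the last and longest Vector peak, of 952 bp and 3172 bp, was not in the FTO list, and in Plxnd1 the longest FTO peak of 1134 bp was the first.

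A list of 97 further genes of the pathway was drawn up from general knowledge, among them cues, kinases and cytoskeletal adaptors. Of these, 66 had a peak, with 250 Vector peaks and 223 FTO peaks, a ratio of 0.892. FTO peaks were fewer for 29 genes (43.9%), as many for 21 and more for 16 (24.2%), beside the 41.4% and 21.2% of all genes given above. Enah, an actin regulator, had 10 Vector and 11 FTO peaks.

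At least 3 fewer FTO peaks were listed for 7 of these 66 genes (10.6%, interval 5.23% to 20.3%), against 5.97% of all genes, with 3 to 6 fewer. Of those with 3 or 4 fewer, Sos1 had 8 Vector and 4 FTO peaks, Ablim1 had 5 and 1, Pak2 had 4 and 0 and Yes1 had 3 and 0. At least 3 more FTO peaks were listed for 2 genes (3.03%, interval 0.835% to 10.4%), against 1.39% of all genes. They were Srgap2, a Slit-Robo GTPase activating protein, with 5 and 9 peaks, and Limk2, which phosphorylates cofilin, with 1 and 5.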

How the data were processed

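m6A-seq was performed by the authors on 1 m6A-IP and 1 input library of each of the 2 groups. The submitters' processing notes name cutadapt 1.9.3, HISAT2 2.0.4 and the build rn6. Peak names carry the prefix MACS, and the caller's settings and threshold are not given in the sources used here. For each group the authors deposited a list of peaks with their length in bp, which is not normalized, the Ensembl transcript and the NCBI gene ID that 248 Vector and 213 FTO peaks lack. Symbols, gene order and strand came from RefSeq tables of GRCr8, and their coordinates were not printed.

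Peaks were counted per gene ID, or per transcript where none was given, and paired 1 to 1 by gene and equal length. Unpaired peaks were then placed between common peaks by the longest common series of lengths. The pairing code was run on simulated lists in which changed peaks got lengths beyond all listed ones. That run therefore could not examine how often unrelated peaks of a gene have equal lengths. No test between the groups was possible with 1 library pair each. Members and lists were chosen with earlier results of these data known. All members with peaks were named, and all lengths were given for members in 1 list alone, with a difference of at least 2 peaks, or among the 3 ligands or receptors with the most peaks. Other pathway genes were named for a difference of at least 3 or for the most peaks. Some of them are not reported here. Alternatives were minimum lengths of 100 and 200 bp, scaling by list size, other pairings and leaving out genes. Python 3.11.15, numpy 2.4.6, pandas 2.3.3, scipy 1.17.1 and matplotlib 3.10.9 were used.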

Additional observations from a re-analysis of the deposited data

How the results depend on the processing

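Of 133 values under alternatives, 105 kept their direction or stayed near the listed value, 22 moved and 6 turned direction. Near was taken widely: 14 genes with as many FTO peaks becoming 21 with peaks of at least 200 bp counted as near. Genes whose only listed peak exceeded 200 bp could not change under the minimum lengths. With FTO numbers scaled up to the size of the Vector list, the difference FTO minus Vector became 15.7 for all members, 6.54 for the ligands, 9.13 for the receptors, 0.463 for the semaphorins, 8.64 for their system and 0.358 for the ephrins, where all were below 0 as listed, since the FTO list is shorter. With peaks of at least 200 bp, 76 Vector and 70 FTO peaks were left and 9 genes had more FTO peaks. Of the 31 genes with a difference, 21 kept its direction and 10 had as many peaks in both lists, while with at least 100 bp all 31 kept it. When differences counted from 2 peaks upwards, 8 genes had fewer, 33 as many and 4 more. The share of unpaired Vector peaks was 37.7% with lengths within 10%, against 36.4% of all Vector peaks, and 26.2% with any peak of the same gene, against 27.8%. Without Ntn1, the listed difference FTO minus Vector was -14 for all members and -8 for the ligands. The scaled values all include Ntn1 where it is a member. Leaving out Ntn1, scaling the systems and the pairing in order were chosen after seeing the data. No paired analysis was possible because there was 1 list from 1 library pair on either side, nor could a replicate be left out, and the unknown depth limits every number.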
